A study of Mus musculus with 3 samples.

Results

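The immunoglobulin κ light chain locus of the mouse, on chromosome 6, held 247 of the 74494 PU.1 peaks called in the longer of 2 chromatin immunoprecipitation (ChIP-seq) peak lists. Members were chosen by position alone: every peak of that list that overlaps chromosome 6, 67555636 to 70760000, a stretch of 3.20 Mb that starts at the first V segment (Igkv2-137) and ends between Igkc and the next protein-coding gene, Rpia. All coordinates are 1-based on mm10. The second list placed 28 of its 6169 peaks in the same stretch, and a merged list of intervals placed 182 of its 49385 there.

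Both lists come from i660BM cells, a pro-B cell line of C57BL/6 origin that carries a doxycycline-inducible PU.1 system and was grown with IL-7. Both libraries were treated with 70 ng/ml doxycycline for 24 h and precipitated with the same rabbit polyclonal antibody to PU.1, and they are called replicate 2 and replicate 3 here, after the numbers in their titles. The 3 samples hold no PU.1 library labelled as uninduced, and no peaks from the input DNA sample were analysed here. Binding that depends on the induction therefore cannot be told apart from binding that does not. Nothing in the labels says that the libraries came from separate cultures or how many clones the line holds. Peak lists carry no expression values, so the label "pro-B" could not be checked against marker genes. The score of a peak is the authors' MACS score, taken as -10 × log10 of the peak's p-value. It grows with sequencing depth, starts at 70.0 in both lists and stops at about 3100, so it ranks peaks within a list and does not compare lists.

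The κ locus is assembled in the B cell precursor from many V segments, a few J segments and a single constant region. A V segment is joined to a J segment, and the joined exon is then spliced to the constant region, Igkc. V segments fall into families of related sequence, named by the number before the dash (Igkv4-55 belongs to family Igkv4), and lie in either orientation, so that joining occurs by deletion or by inversion. V promoters carry an octamer motif read by the Oct factors. Enhancers lie in the intron between the J segments and Igkc and beyond Igkc. At the 3' enhancer beyond Igkc, PU.1 is known to bind next to the factor IRF4 (or the related IRF8), on a composite site. PU.1 itself recognises a purine-rich site with the core GGAA, as other ETS factors do.

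No promoter of a κ segment was among the RefSeq promoters used here (0 matched). Of the 5 promoters inside the locus, all of long non-coding RNA genes, 1 lay under a PU.1 peak and is printed as the sequence beneath a member. It belongs to LOC108169192, whose promoter (mm10, chromosome 6, 68880650 to 68880949, minus strand, 250 bases before to 50 bases after the start, RefSeq build GRCm38.p6) lies wholly within a replicate 2 peak of 1098 bp (68880507 to 68881604, score 316, no replicate 3 peak), 17619 bp from Igkv1-88. Read 5′ to 3′ on the gene's strand, with the octamer ATTTGCAT in capitals:

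LOC108169192: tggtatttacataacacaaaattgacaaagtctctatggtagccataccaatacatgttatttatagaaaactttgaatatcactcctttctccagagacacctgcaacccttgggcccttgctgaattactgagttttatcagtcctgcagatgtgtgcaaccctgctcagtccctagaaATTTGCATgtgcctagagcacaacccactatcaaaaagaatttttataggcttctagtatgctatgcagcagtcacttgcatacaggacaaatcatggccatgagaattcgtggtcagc

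Searched on both strands, this window held 1 octamer and no GGAA, and no copy of the longer PU.1 site GAGGAAGT, which contains GGAA. Among all 32851 RefSeq promoters of this length, 1.74% held ATTTGCAT, 96.0% held GGAA and 3.20% held GAGGAAGT. The window covers part of the peak only. The other 4 promoters lay 1.24 to 4.10 kb from the nearest peak.

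Peaks were dense in the κ locus. Replicate 2 had 77.1 peaks per Mb there and 26.3 per Mb over the rest of chromosome 6 (3851 peaks), 2.93 times as many. Windows of the same length on either side held 73 peaks before the locus and 142 beyond it. No test was made of this difference, since each library gave a single list. The κ peaks covered 8.32% of the stretch. They were of ordinary width, with a median of 1007 bp (range 558 to 3016) beside 995 bp over the whole list. Their scores ran from 70.6 to 3100 with a median of 286 (quartiles 136 and 723), beside a median of 232 over the whole list. Neighbouring peaks stood a median of 7588 bp apart.

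**Figure D1:**
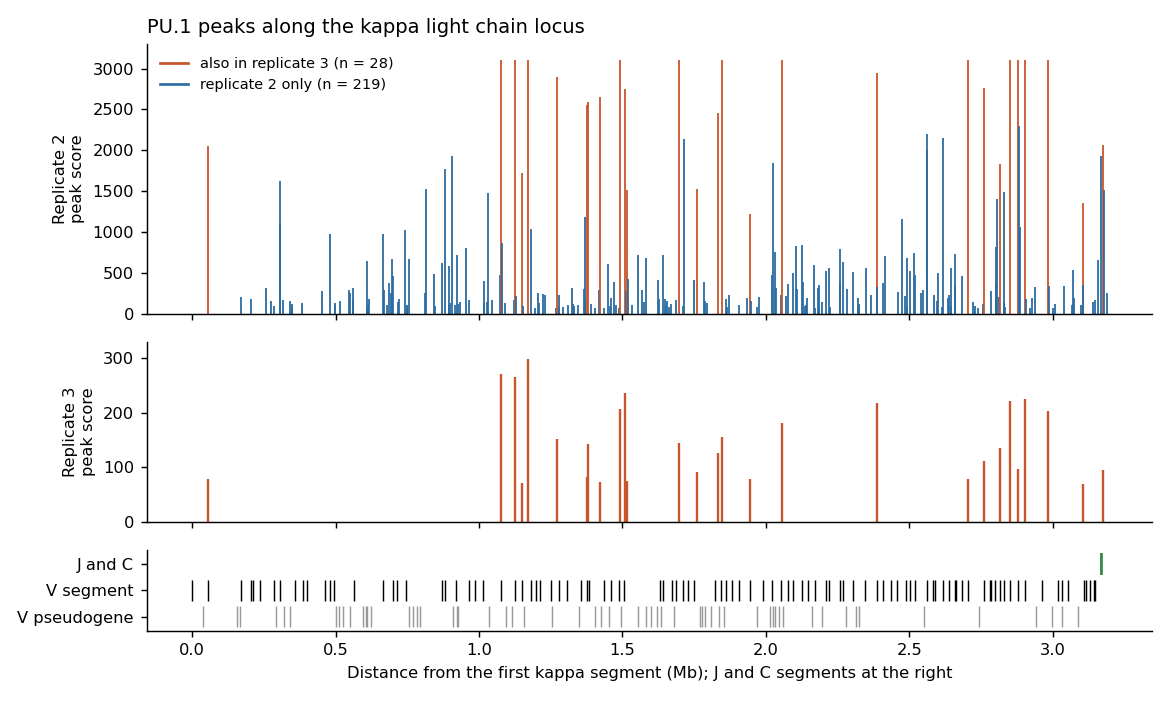
Peak scores along the κ locus (x axis, distance from the first V segment in Mb) in replicate 2 (top, 247 peaks) and replicate 3 (middle, 28 peaks), with V segments, V pseudogenes and the J and C segments below. Orange lines are peaks found in both libraries; between the peak at 0.0541 Mb and the one at 1.08 Mb none is orange, while replicate 2 peaks run through the whole locus.

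Along the locus the peaks thinned out at the end farthest from the J segments. With the locus divided into 5 parts of equal length, the part farthest from Igkc held 26 peaks, or 4.06 per 100 kb. The other 4 parts held 54, 55, 58 and 54 peaks, or 8.43 to 9.05 per 100 kb. V segments, pseudogenes included, were about as frequent in each part (29, 30, 37, 35 and 31). The share with a peak within 1 kb was 31.0% in the far part and 45.9% to 65.7% in the others. Pseudogenes were spread unevenly, with 14, 12, 17, 12 and 5 in these parts. Over the whole locus 28.3% of pseudogenes and 63.7% of the other V segments had such a peak. The share by part was not split by type, so the effect of this uneven mix was not tested. The replicate 3 peaks were spread unevenly, with 1, 5, 10, 3 and 9 in the same order. The longest stretch without a replicate 2 peak, 114 kb, lay in the far part (67610305 to 67724423) and held 2 V segments, Igkv14-134-1 and Igkv17-134. The fullest 100 kb (69655636 to 69755635) held 13 peaks around Igkv4-51, Igkv4-50, Igkv12-49, Igkv5-48 and Igkv12-47. Their median score was 311, and none of the 13 had a replicate 3 peak.

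All 28 of the shorter list's κ peaks fell on peaks of the longer list, as did all 6169 over the genome (100%). In the other direction, 28 of 247 replicate 2 peaks had a replicate 3 peak (11.3%, exact Clopper-Pearson 95% interval 7.67 to 16.0), beside 8.24% over the whole list, which lies inside that interval. The intervals given here cover counting error only. The overlap followed the replicate 2 score. A score of 3100 was reached by 12 κ peaks (4.86%, beside 3.57% over the whole list), and all 12 had a replicate 3 peak (beside 97.1%). Peaks scored from 2000 to under 3100 had one in 10 of 15 cases (66.7%, beside 71.1%), and peaks from 1000 to under 2000 in 6 of 22 (27.3%, 10.7 to 50.2, beside 17.5%). Below 500 none of 163 did (upper bound of the interval 2.24%), and from 500 to under 1000 none of 35. In each of these 5 bands the exact interval of the κ share included the share over the whole list, which holds the κ peaks too. From 500 upwards a band held 35 κ peaks or fewer, so its interval was wide and cannot show that the shares were equal.

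The 20 highest replicate 2 scores in the locus all belonged to peaks found in both libraries, and the first without a replicate 3 peak stood at rank 21. The lowest replicate 2 score with a replicate 3 peak was 1222, a level that 43 peaks reached. Replicate 3 scores were modest, from 70.0 to 299 with a median of 140, beside a median of 136 and a highest score of 3100 over that whole list. Of the 28, 11 scored under 100, close to the lowest score called. Over these 28 peaks the scores of both libraries ranked together (Spearman correlation 0.73, a description across peaks that share their libraries). It was 0.70 over the 16 peaks with a replicate 2 score under 3100.

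**Figure D2:**
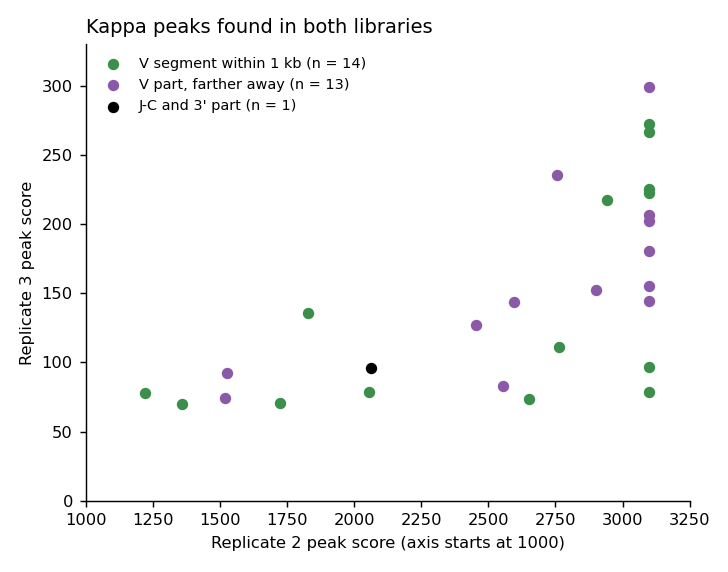
Replicate 3 score against replicate 2 score (x axis starts at 1000) for the 28 κ peaks found in both libraries, coloured by place. The 12 peaks at 3100 in replicate 2 spread from 78.6 to 299 in replicate 3, and the single J-C and 3' peak lies at 2065 and 95.7.

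By place, 72 of the 247 peaks overlapped a V segment and 21 more came within 1 kb of one. Another 70 lay 1 to 5 kb from the nearest V segment and 79 farther away, and 5 lay in the J-C and 3' part, taken from 10 kb before Igkj1 to the end of the locus. The median replicate 2 score was 490 for peaks over a segment, 387 within 1 kb, 186 at 1 to 5 kb and 231 beyond 5 kb. The ranges overlapped, since each of these classes reached from 83.9 or less to 2941 or more. In the J-C and 3' part the median was 1511. Replicate 3 peaks were found at 11, 3, 7, 6 and 1 of these peaks in the same order, so 13 of the 27 in the V part lay more than 1 kb from any V segment. The centre of a V-part peak lay a median of 2943 bp from the nearest segment (quartiles 178 and 7901 bp).

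Counted by segment, 82 of 162 V segments had a replicate 2 peak within 1 kb (50.6%, exact 95% interval 42.7 to 58.6), and in 70 of them the peak overlapped the segment itself. Over the genome 63.6% of protein-coding genes had a peak within 1 kb of their span. V segments are far shorter than most genes, and of genes with a span of at most 1 kb outside the κ segments, a comparison chosen after the values were seen, 11.9% had one. Replicate 3 peaks lay within 1 kb of 14 V segments (8.64%, 4.81 to 14.1), beside 12.4% of protein-coding genes and 1.10% of the short genes. Of the 20 families, 18 had at least 1 segment with a replicate 2 peak. The exceptions, Igkv18 and Igkv20, have 1 segment each. Segments share sequence within a family and share neighbours, so they are not independent replicates.

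RefSeq types 102 of the segments as V segments and 60 as V pseudogenes, which cannot give a working light chain. A replicate 2 peak lay within 1 kb of 65 of the 102 (63.7%, 53.6 to 73.0) and of 17 of the 60 pseudogenes (28.3%, 17.5 to 41.4). Replicate 3 peaks lay near 13 of 102 (12.7%, 6.96 to 20.8) and 1 of 60 (1.67%, 0.0422 to 8.94). Family by family the split was not even. In Igkv8, 10 of 11 segments and 0 of 2 pseudogenes had a replicate 2 peak, and in Igkv12 6 of 6 and 2 of 6. In Igkv4 the counts were 18 of 28 and 3 of 5, and in Igkv13 they were 0 of 2 and 6 of 17. Best scores near segments and near pseudogenes overlapped, with medians of 515 and 414.

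**Figure D3:**
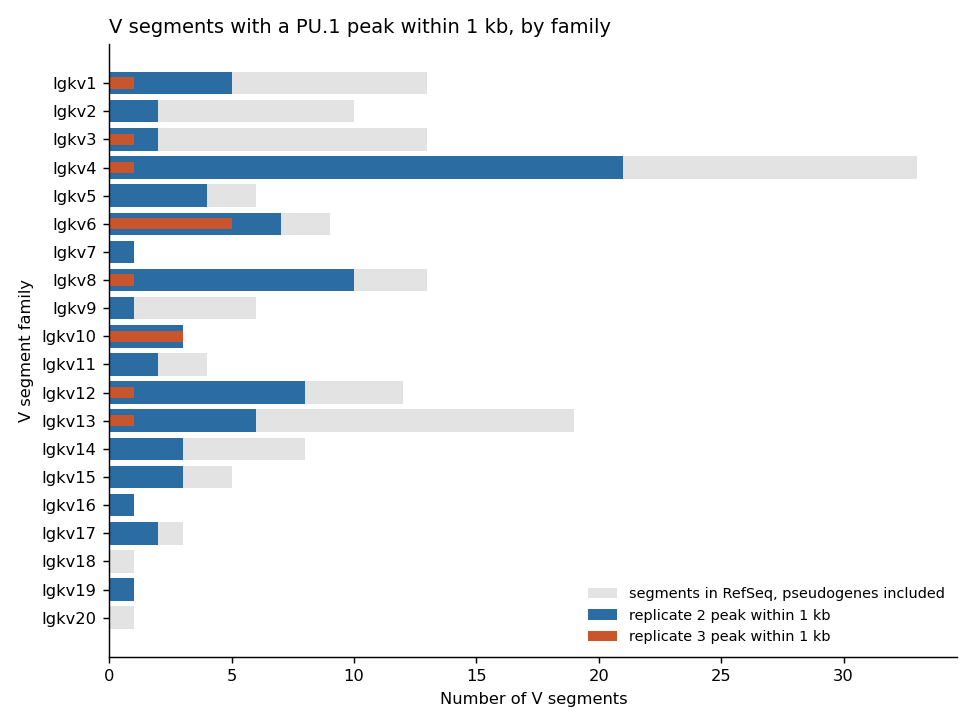
Number of V segments per family (grey bars, pseudogenes included), of those with a replicate 2 peak within 1 kb (blue) and of those with a replicate 3 peak within 1 kb (orange). Igkv10 has both at 3 of 3 and Igkv6 at 7 and 5 of 9, while Igkv4, the family with most members, has 21 and 1 of 33.

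Igkv10 was marked in full. The 3 segments of this family, none a pseudogene, each lay under a peak centred on the segment, 22.5 bp or less from the segment's own centre. Igkv10-96 lay under a peak at 68631316 to 68633051 (3100 in replicate 2, 272 in replicate 3). Igkv10-95 lay under one at 68679740 to 68681460 (3100 and 266), and Igkv10-94 under one at 68703941 to 68705590 (1724 and 70.7). The first and second of these stood high among the κ peaks of both libraries, and the third close to the replicate 3 minimum. All 3 peaks were wide, at 1736, 1721 and 1650 bp. With 3 segments the exact interval for the share runs from 29.2% to 100%.

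Igkv6 carried the widest peaks of the locus. Of its 9 segments, 7 had a replicate 2 peak (77.8%, 40.0 to 97.2) and 5 a replicate 3 peak (55.6%, 21.2 to 86.3). Igkv6-13 lay under a peak of 3016 bp (70456847 to 70459862; 3100 and 225) and Igkv6-15 under one of 2954 bp (70405864 to 70408817; 3100 and 222). Igkv6-23 (70259896 to 70262775; 3100 and 78.6), Igkv6-17 (70370751 to 70373250; 1827 and 136) and Igkv6-14 (70434435 to 70436172; 3100 and 96.6) completed the 5. Igkv6-32 had a replicate 2 peak scored 742 over it. Igkv6-25 had one scored 346 over it and a stronger one, scored 732, that ended 844 bp away. Igkv6-29 and Igkv6-20 had none. Only 4 peaks of the locus were wider than 2 kb (1.62%, beside 3.27% over the whole list), and all 4 lay over Igkv6 segments.

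Pseudogenes of another kind lie next to several Igkv6 segments. Igkv6-13, Igkv6-15 and Igkv6-14 each have a RefSeq pseudogene (Gm8872, Gm8853 and Gm8862) 1.63 to 1.64 kb away on the side of the J segments, and Igkv6-23 has Gm8836 at 1.02 kb. In replicate 2 the peak over the segment ran into the pseudogene at Igkv6-13, Igkv6-15 and Igkv6-23, while the replicate 3 peaks there ended before it, at 70458608, 70407636 and 70261510. At Igkv6-25 a replicate 2 peak scored 346 (70214836 to 70216552) lay over both the segment and Gm8828, 0.268 kb away on the side away from Igkc. The peak scored 732 near this segment (70213582 to 70214589) lay wholly within Gm8828. At Igkv6-14 a separate replicate 2 peak, the highest in the locus without a replicate 3 peak, touched Gm8862 instead (70436197 to 70437181, score 2296) with 24 bp between it and the peak over the segment. At Igkv6-17 the pseudogene, Gm8848, lies on the other side at 1.67 kb. The peak over the segment stopped short of it, and it was touched by a separate peak scored 204. Summit positions within the peaks were not used here.

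Igkv4, in the middle of the locus, is the family with the most members. Of its 33 segments, 21 had a replicate 2 peak within 1 kb (63.6%, 45.1 to 79.6), with a median best score of 231 (74.5 to 1222), beside 232 for all peaks of the list. A replicate 3 peak was found at 1, Igkv4-58 (69499618 to 69500974; 1222 and 77.9). The peaks over Igkv4 segments sat at a nearly fixed place. Of the 20 segments with a peak over them, 19 had its centre 150 to 400 bp from the segment's centre on the side away from Igkc (median -308 bp). The exception was at Igkv4-53. This band was not among the planned results, and a peak that overlaps a segment has its centre near it by construction. Over all families, taking the best-scoring peak over each segment, 44 of 70 segments had it in that band, among them 7 of 8 in Igkv12 and 6 of 9 in Igkv8, and in Igkv6 1 of 7. Igkv6-32 and Igkv8-30 each had a second peak over them (scores 478 and 768), with its centre outside the band. At Igkv8-30 the best-scoring peak was centred outside the band as well. The gene table used for segments gives no strand, so which of these sides is the promoter side was not determined.

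A second place recurred beside Igkv4 segments, seen in the data before it was counted. For 8 of the 33 segments (24.2%) a peak centre lay 3 to 4 kb from the segment's centre on the Igkc side, and for 1 on the other side. Over all 162 segments the counts were 13 and 11. The Igkv4 peaks there included 4 of the strong ones found in both libraries. They lay beside Igkv4-79 (69046421 to 69047525; 3100 and 206), Igkv4-78 (69063127 to 69064276; 2755 and 235), Igkv4-62 (69403442 to 69404613; 3100 and 155) and Igkv4-55 (69610920 to 69612090; 3100 and 181). Beside Igkv4-70 (69271298 to 69272394) and Igkv4-57 (69579465 to 69580575) the replicate 2 scores were 2138 and 1842, with no replicate 3 peak. These 6 centres lay 3.70 to 3.97 kb from the segment centre, and the remaining ones, at 3.12 and 3.23 kb beside Igkv4-58 and Igkv4-51, were weaker at 161 and 394. The peak over the segment itself scored 74.5 at Igkv4-79, 101 at Igkv4-70, 472 at Igkv4-57 and 231 at Igkv4-55, each below the peak beside it. Igkv4-78 and Igkv4-62 had none over them. At Igkv4-58 and Igkv4-51 the order was turned, with 1222 and 848 over the segment.

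**Figure D4:**
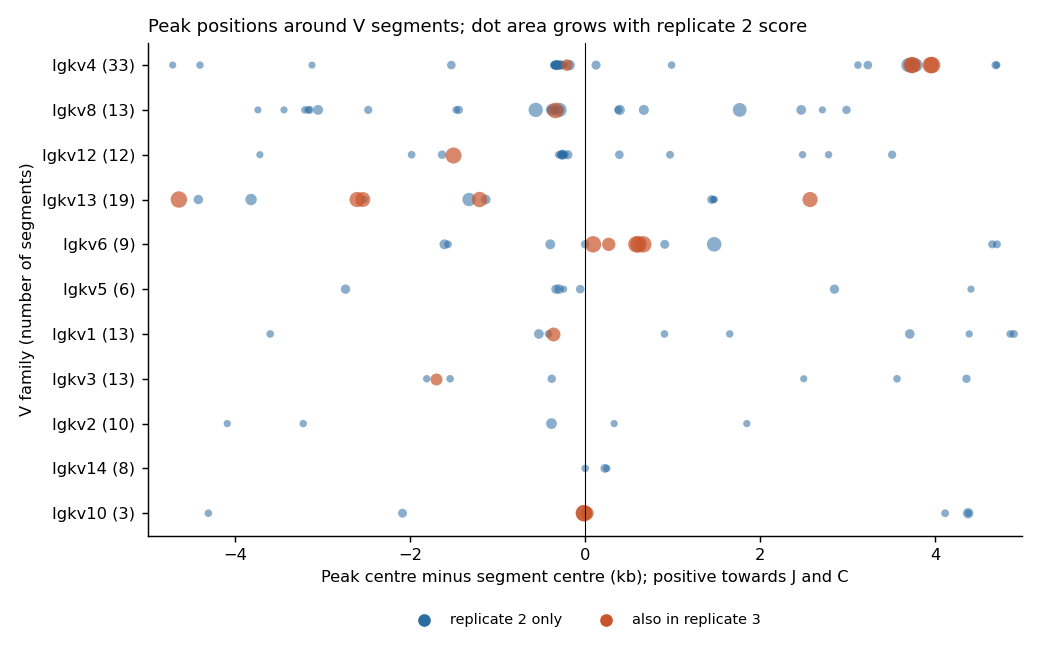
Distance of replicate 2 peak centres from V segment centres (x axis, kb, positive towards Igkc) for families with 8 or more segments and for Igkv5 and Igkv10, with dot area growing with replicate 2 score and orange for peaks also in replicate 3. Igkv4 peaks stack just left of 0 and again, larger, at 3.70 to 3.97 kb. The strongest Igkv10 peak of each segment stands at 0. Weaker Igkv10 peaks lie at 4116 to 4381 bp, and at -2089 and -4308.5 bp.

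Igkv13, made up of 17 pseudogenes and 2 segments interspersed with Igkv4, had no peak over any member. Its 6 members with a peak within 1 kb (31.6%, 12.6 to 56.6) were all pseudogenes. Peak centres stood 1.14 to 1.33 kb from Igkv13-76, Igkv13-82 and Igkv13-56-1 on the side away from Igkc, with scores of 679, 2650 and 1842. The last of these is the peak already given beside Igkv4-57. On the Igkc side, at 1.45 to 1.48 kb from Igkv13-74-1, Igkv13-80-1 and Igkv13-57-2, the scores were 414, 93.8 and 83.9. Farther out, at 2.54 to 2.61 kb, 3 peaks were found in both libraries, and a peak at 2.53 kb from Igkv13-87 scored 106 in replicate 2 alone. They lay beside Igkv13-85 (68932474 to 68933672; 2555 and 82.7), Igkv13-84 (68936644 to 68937809; 2597 and 144) and Igkv13-62-1 (69389532 to 69390637; 2454 and 127). Igkv13-82 had the single replicate 3 peak within 1 kb of a V pseudogene (68977582 to 68978863; 2650 and 73.2).

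Igkv8 and Igkv12 had peaks over most segments, with few in replicate 3. In Igkv8, 10 of 13 had a replicate 2 peak within 1 kb (76.9%, 46.2 to 95.0; best scores 230 to 2764), and Igkv8-21 alone had a replicate 3 peak (70314249 to 70315399; 2764 and 111). Igkv8-30 and Igkv8-27 followed at 2202 (70116066 to 70117481) and 2148 (70171185 to 70172308) without a replicate 3 peak, and another peak, 925 bp from Igkv8-30, scored 2005 (70118542 to 70119670). With the peaks touching Gm8862 and lying beside Igkv4-70, these are the 5 highest replicate 2 scores of the locus that lack a replicate 3 peak. In Igkv8 the 3 to 4 kb window was filled on the side away from Igkc, at 6 of 13 segments, with scores of 73.6 to 732 and none in replicate 3. In Igkv12, 8 of 12 had a replicate 2 peak (66.7%, 34.9 to 90.1), and the only replicate 3 peak was near Igkv12-38, 788 bp from the segment, on the stronger of its replicate 2 peaks, which ended 740 bp from it (69941355 to 69942446; 2941 and 217).

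The other families lie partly towards the ends of the locus. Igkv3, which fills the end next to the J segments, had a replicate 2 peak at 2 of 13 (15.4%, 1.92 to 45.4), Igkv3-5 and Igkv3-1. Near Igkv3-5 lay the peak with the lowest replicate 3 score of the locus (70661311 to 70662463; 1360 and 70.0). Igkv1 had 5 of 13 (38.5%), among them Igkv1-135, which carried the only replicate 3 peak of the far part (67609217 to 67610304; 2054 and 78.6). Igkv2 had 2 of 10 (20.0%), Igkv9 1 of 6 (16.7%) and Igkv14 3 of 8 (37.5%), all without replicate 3. Igkv2 and Igkv14 consist mostly of pseudogenes (7 of 10 and 5 of 8), and among their segments not typed as pseudogenes 2 of 3 had a peak in each family. Igkv5 had 4 of 6 (66.7%) and Igkv15 3 of 5 (60.0%), likewise without replicate 3. The 8 families of fewer than 5 segments had 10 of 15 together (66.7%, 38.4 to 88.2). The intervals of most families overlap, and differences between families were not tested.

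The remaining strong peaks found in both libraries lay far from V segments. The highest replicate 3 score of the locus, 299, belonged to a peak 9.17 kb from Igkv19-93 (68725876 to 68727128; 3100 in replicate 2). A peak 13.9 kb from Igkv3-11 (70537792 to 70539389) scored 3100 and 202, and one 8.51 kb from Igkv4-71 (69252193 to 69253180) scored 3100 and 144. Further peaks lay 7.02 kb from Igkv12-89 (68825835 to 68827828; 2902 and 153), 8.32 kb from Igkv4-68 (69313681 to 69315008; 1528 and 92.2) and 10.7 kb from Igkv4-78 (69070929 to 69071855; 1518 and 74.2). None of these 6 overlapped any RefSeq gene other than Igk itself. They hold 3 of the 12 scores of 3100.

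The J-C and 3' part held 5 replicate 2 peaks, 1 of them in replicate 3. None lay over a J segment. The J segment nearest to a peak was Igkj5, at 1.37 kb, followed by Igkj4 at 1.71 kb, Igkj3 at 2.03 kb, Igkj2 at 2.34 kb and Igkj1 at 2.69 kb. In order along the locus, the first peak (70713837 to 70715049, score 661) lay between the last V segment and the J segments, 7.51 kb before Igkj1 and inside the long non-coding RNA gene Gm46961. The next (70725291 to 70726402, score 1925) lay in the intron between Igkj5 and Igkc, the interval that holds the intronic enhancer. It began 1.37 kb after Igkj5 and ended 33 bp before Igkc (70726435 to 70726754), the exon of the constant region. Neither had a replicate 3 peak.

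Beyond Igkc, 3 peaks lay within the long non-coding RNA gene Gm30211. The strongest of the part, at 70730497 to 70731693, began 3.74 kb past the end of Igkc and scored 2065 in replicate 2 and 95.7 in replicate 3. The next, at 70735152 to 70736227, began 8.40 kb past Igkc with a score of 1511, and the last, at 70743691 to 70744715, began 16.9 kb past it with a score of 259. Both were in replicate 2 alone. Enhancer positions were not among the sources used here, so no peak is assigned to the 3' enhancer by name. Of the 5 peaks, the 3 from the intron to 8.40 kb past Igkc ranked 29, 25 and 38 among the 247, and all 5 lay in a merged interval.

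**Figure D5:**
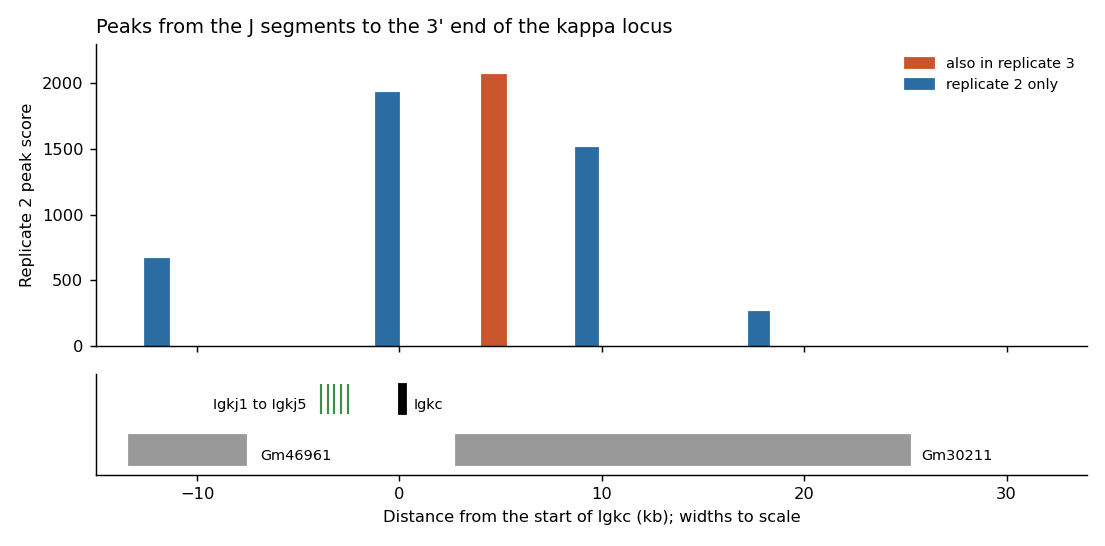
Replicate 2 peaks from before the J segments to the 3' end of the locus (x axis, distance from the start of Igkc in kb; y axis, peak score; widths to scale), with Igkj1 to Igkj5, Igkc, Gm46961 and Gm30211 below. The peak 3.74 kb past Igkc (orange, 2065) is the one also found in replicate 3.

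The merged list kept the stronger κ peaks. Of the 247 replicate 2 peaks, 182 touched one of the merged intervals (73.7%, beside 66.5% over the whole list), all 28 with a replicate 3 peak among them. The 65 peaks outside had a median score of 103 and a highest of 184, while those inside had a median of 442 and a lowest of 106. Of the 182 merged intervals, 181 touched a peak of the longer list and 28 a peak of the shorter one. Besides κ segments, 8 of 20 RefSeq pseudogenes of the locus were touched by a replicate 2 peak, beside 6.81% of that gene type over the genome, and 6 of the 8 were the neighbours of Igkv6 segments named above. Of 5 long non-coding RNA genes 3 were touched, beside 38.2%, and of 4 small nucleolar RNA genes none, beside 3.88%. The lengths of these genes were not matched.

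Related V segments resemble each other in sequence, and how reads that align to several places were handled was not stated in the labels or notes. A read from one member of a family can be placed on another, so peaks over members of 1 family may share reads. The part of this in the family counts was not tested.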

How the data were processed

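PU.1 ChIP-seq peaks of 2 induced i660BM libraries were used. Per the submitters' processing notes, the authors used Trim Galore, Bowtie and MACS 1.4.1 on build mm10. Neither the other settings nor the peak-calling control nor read depth was stated in the labels or notes. Each deposited peak list has a score per peak, given by the authors' peak caller. The merged list has a deposited score of 0 in every row, and only its positions were used.

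Computed here, in Python 3.11.15 with pandas 2.3.3 and SciPy 1.17.1: 1-based positions, overlaps of 1 bp or more, distances to RefSeq spans (GRCm38.p6, without strand), and exact Clopper-Pearson 95% intervals. Interval functions were tested on simulated data. With 1 list per library there was no test between conditions, and V segments, which share sequence and neighbours, were described by counts. Alternatives were other windows, a score of at least 100, 50% reciprocal overlap and each list alone. The members, lists and naming rule (peaks found in both libraries, the 5 strongest found in replicate 2 alone, every J-C and 3' peak, and families of 5 or more segments) were chosen with earlier results of these data known.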

Additional observations from a re-analysis of the deposited data

How the results depend on the processing

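Of 24 alternatives over 6 results, 16 stayed within the tolerance used (1.5 times for counts, the exact interval for shares, the quartiles for the median distance) and 8 moved. Within 5 kb in place of 1 kb, 76.5% of V segments had a replicate 2 peak and 14.2% a replicate 3 peak. Among segments not typed as pseudogenes the replicate 2 share was 63.7%. With scores of at least 100 the replicate 3 share fell to 4.32%. Without replicate 2, the shorter list gave 28 peaks in the locus, 8.64% of V segments and 1 peak in the J-C and 3' part. The median centre distance in that list was 1422 bp in place of 2943 bp, which stayed within the tolerance. Without replicate 3 the share of V segments was 50.6%. The V promoter motif count was not run, since no κ segment promoter was matched. No paired analysis was possible because the PU.1 libraries are 1 group and the title of the input gives no replicate number. Read depth is unknown, so a peak missing from replicate 3 may lie under its detection limit.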
